A study of Homo sapiens with 4 samples.

Results

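10 genes of the NOTCH pathway were followed across 4 populations on the path from human embryonic stem cells to blood. They were the receptors NOTCH1, NOTCH2, NOTCH3 and NOTCH4, the ligands DLL4, JAG1 and JAG2, and the target genes HES1, HEY1 and HEY2. They were chosen by gene symbol, and all 10 of 10 had a row among the 17630 genes analysed. The cells were H1, an established human embryonic stem cell line. The groups were undifferentiated cells (hESC), APLNR+ cells sorted on day 2 (MES, after activin A at 40 ng/ml and BMP4 at 50 ng/ml), CD31+CD34+ cells sorted on day 4 (HEP, after a further 2 days in VEGF at 40 ng/ml and bFGF at 50 ng/ml), and, from day 7, sorted CD31+CD43+ cells (HPC, after 3 more days in VEGF, bFGF and SB-431542, which blocks the receptors of activin and NODAL). Each group was 1 RNA sequencing library of 1 line. Values therefore carry no replicate error, samples could not be tested against each other, and every difference lacks a replicate check.

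NOTCH proteins are receptors that a ligand on a neighbouring cell activates by contact. Binding lets ADAM proteases and then gamma-secretase cut the receptor, and the freed intracellular part joins the DNA-binding protein RBPJ and a MAML co-activator to switch on targets such as the HES and HEY repressors. In the embryo the pathway is known for arterial identity and for the emergence of blood stem cells from arterial endothelium.

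The values are the authors' normalised expression signal, which has no stated depth. Values and transcript lengths were negatively related in each library (Spearman rho across 8141 genes from -0.30 to -0.21, a description across genes that are not independent), and levels of different genes are compared below on the understanding that the signal is per length. A gene is called higher or lower when (value + 1) differs at least 2-fold and the higher library stands at 5 or more. Library differences ran with transcript GC content. Across 6366 genes, Spearman's rho between GC content and the log2 difference was 0.22 for MES minus hESC, 0.71 for HEP minus MES and -0.43 for HPC minus HEP. The 10 genes had transcript GC contents from 46.4% (HEY2) to 64.2% (JAG2), and 91.1% of the genes with a mean of 5 or more had a lower GC content than NOTCH1, 91.4% than NOTCH3 and 94.2% than JAG2. Values are therefore also given with each library's trend with GC content divided out. Among genes at 5 or more in either library, the median log2 difference was -0.21 for MES minus hESC, -0.39 for HEP minus MES and 0.02 for HPC minus HEP, and -0.04, -0.09 and 0.03 with the GC trend removed.

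Of the target genes whose promoter window was read, HES1 and HEY2 carry the RBPJ motif core near their start sites. These promoters are shown because the pair had their highest values in different libraries. The windows run from 250 bases before to 50 bases after the start (RefSeq, GRCh38.p14, a later build than the hg19 of the authors' processing), at chr3:194135898-194136197 on the plus strand for HES1 and chr6:125749382-125749681 on the plus strand for HEY2. Capitals mark TGGGAA on either strand.
HES1: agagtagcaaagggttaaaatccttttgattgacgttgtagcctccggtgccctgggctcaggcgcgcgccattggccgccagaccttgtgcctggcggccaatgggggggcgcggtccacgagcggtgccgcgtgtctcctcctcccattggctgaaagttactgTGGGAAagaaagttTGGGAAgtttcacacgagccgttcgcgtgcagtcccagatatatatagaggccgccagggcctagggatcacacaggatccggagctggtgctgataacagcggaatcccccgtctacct
HEY2: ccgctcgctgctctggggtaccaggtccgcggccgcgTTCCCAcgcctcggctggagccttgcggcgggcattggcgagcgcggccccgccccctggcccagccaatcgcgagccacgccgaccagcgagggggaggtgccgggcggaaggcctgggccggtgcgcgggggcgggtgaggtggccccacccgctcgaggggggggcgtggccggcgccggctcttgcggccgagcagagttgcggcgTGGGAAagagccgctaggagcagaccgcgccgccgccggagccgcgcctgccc
The HES1 window held 2 matches on the strand of the gene, beginning at bases -84 and -70 from the start site, 14 bases apart. The HEY2 window held 1 match on the opposite strand beginning at base -213 and 1 on the strand of the gene beginning at base -3. Promoter windows were read for 9 of the 10 genes. HEY1 was left out by a filter on chromosome, so its window was not searched for the motif. No TGGGAA stood in the windows of NOTCH1, NOTCH2, NOTCH3, NOTCH4, DLL4, JAG1 or JAG2. Of all 35116 windows of 300 bases, 24.0% held TGGGAA at least once and 3.80% at least 2 times. The longer form GTGGGAA, which contains the core, stood 1 time in the HES1 window and 2 times in the HEY2 window. Of all windows, 6.25% held it at least 1 time and 0.248% at least 2 times. A match is a run of letters and says nothing of binding in these cells.

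The labels were read against their markers before the results. The 4 sort antigens fitted the sorts in part: APLNR stood at 0.57, 344, 250 and 15.6 in hESC, MES, HEP and HPC, CD34 at 0.13, 1.35, 43.6 and 18.4, and SPN (CD43) at 0.11, 0.08, 0.97 and 24.4, while PECAM1 (CD31) reached no more than 1.83 in HEP and 7.49 in HPC, the 2 libraries sorted on it. The summed value of 5 pluripotency markers was 2565, 847, 325 and 140 in hESC, MES, HEP and HPC, and that of 6 mesoderm markers 1.25, 587, 274 and 18.4. Most of the mesoderm sum in HEP was APLNR (250 of 274). MESP1, MIXL1 and EOMES stood at 65.9, 57.2 and 56.5 in MES and at 1.73, 0.68 and 3.20 in HEP. HAND1 was at 47.05 in MES and 17.4 in HEP, and PDGFRA at 15.5 and 1.68. The summed value of 7 endothelial markers was 32.3, 65.5, 417 and 216 in hESC, MES, HEP and HPC. Of the 7, 6 were at 1 or more in HEP and in HPC, with KDR alone at 210 and 88.3 there. The summed value of 7 blood markers was 2.37, 4.28, 26.7 and 382. ITGA2B alone was at 283 in HPC, and 5 of the 7 were at 5 or more there. The other 2 were not: RUNX1 stood at 0, 0.45, 2.83 and 2.43, and PTPRC, the pan-leukocyte antigen CD45, at 0.03, 0, 0 and 0.04. The summed value of 4 erythroid markers was 0.45, 2.18, 1.62 and 502 in hESC, MES, HEP and HPC, with HBE1 alone at 442 in HPC. That of 4 megakaryocyte markers was 1.34, 0, 1.74 and 49.1, with PF4 at 30.3 and PPBP at 0.69 in HPC. Library sums ran from 306724 to 426980 and genes at 5 or more from 5191 to 6655. In such bulk libraries, fewer cells of a type and less RNA per cell cannot be told apart.

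**Figure D1:**
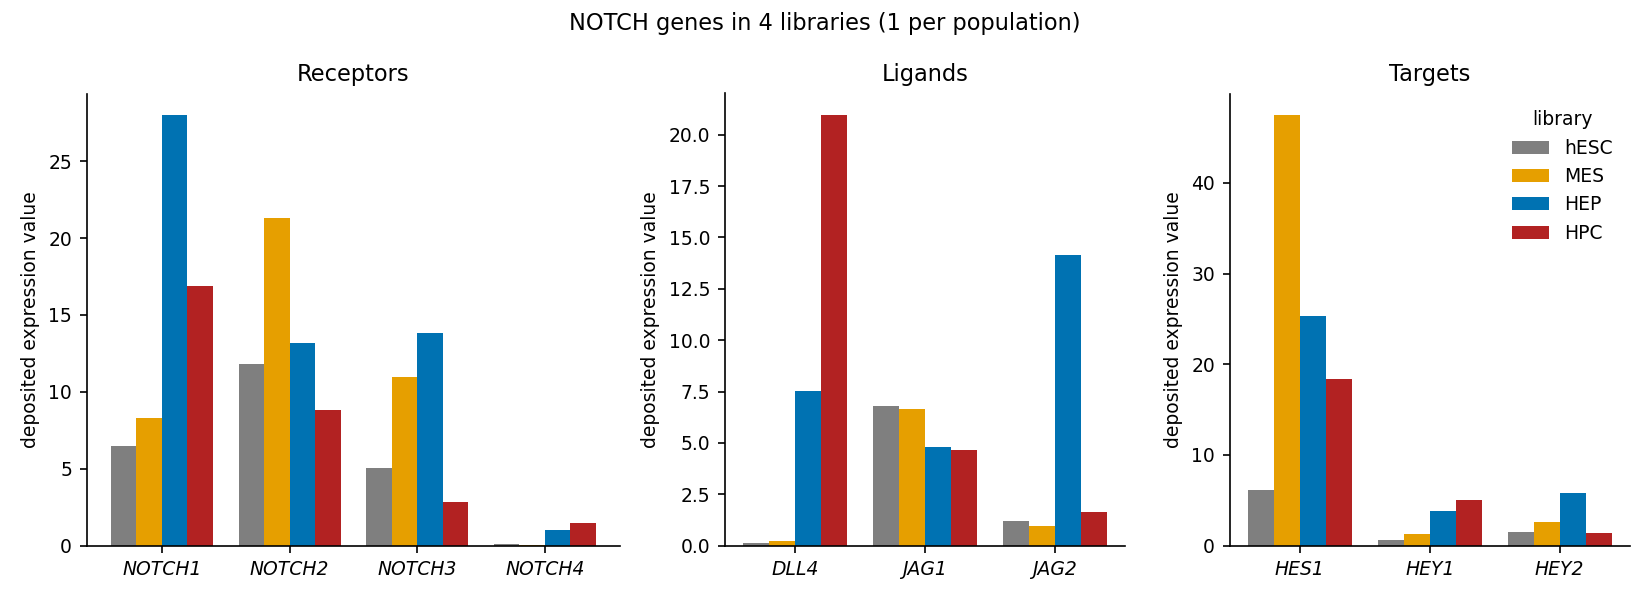
Deposited expression value (linear axis from 0, 1 library per population, no error) of the 4 receptors, 3 ligands and 3 target genes in hESC, MES, HEP and HPC. NOTCH1 and JAG2 stand highest in HEP, DLL4 in HPC, and NOTCH2 and HES1 in MES, while JAG1 stays between 4.66 and 6.82.

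NOTCH1, the receptor most studied in arterial and blood development, had 6.45 in hESC, 8.32 in MES, 28.0 in HEP, then 16.9 in HPC. HEP was the high library and hESC the low one, and the gene was 1476th of all genes by value in HEP, 2276th in HPC and 5828th in hESC. NOTCH1 was higher in HEP than in MES (log2 difference 1.64, or 1.22 with the GC trend removed) and higher in HPC than in hESC (1.26, or 1.09 with the trend removed). From HEP to HPC it was at 16.9 in HPC against 28.0 in HEP, a difference of -0.70 that did not pass the rule.

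NOTCH2, a widely expressed receptor, stood at 11.84, 21.33, 13.15 and 8.82 in hESC, MES, HEP and HPC. It was highest in MES and lowest in HPC, but none of the comparisons passed the rule on the values as deposited. The difference of MES minus hESC was 0.80, and it came to 1.004 with the GC trend removed and 1.01 after rescaling to a common total, at or just past the threshold. NOTCH2 has near-identical partial copies in the genome, the NOTCH2NL genes. No gene of that name had a row, and how their reads were treated is uncertain.

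NOTCH3, known as a receptor of vascular smooth muscle and pericytes, stood at 5.05, 10.95, 13.85 and 2.84 across hESC, MES, HEP and HPC. Its value was lower in HPC than in HEP (log2 difference -1.95, or -1.68 with the GC trend removed). MES minus hESC was 0.98, just short of the threshold of 1, and it passed with a pseudocount of 0.1 (1.10), median-of-ratios scaling (1.13), upper quartile scaling (1.03) and both rescalings to a common total (1.17, and 1.16 without abundant genes). HEP minus MES was 0.31, and -0.10 with the GC trend removed, so no direction is given for that step. The summed value of 8 smooth muscle and mural markers was 112, 603, 276 and 46.9 in hESC, MES, HEP and HPC, most of it TAGLN (94.8, 561, 233 and 12.4), and its peak lay in MES. Its members differed: ACTA2, smooth muscle actin, was at 0.72, 1.68, 6.81 and 19.2, highest in HPC where NOTCH3 was lowest, and the pericyte receptor PDGFRB at 1.98, 8.25, 6.30 and 7.66. MYH11, a marker of mature smooth muscle, was at 0.17, 0.03, 0 and 0.02, and RGS5, a pericyte marker, at 2.88, 5.02, 11.45 and 2.49. The list also held CNN1 (9.32, 24.86, 11.96 and 1.83), CSPG4 (1.63, 1.67, 4.02 and 2.08) and DES (0.42, 0.23, 2.6 and 1.23). TAGLN, CNN1 and RGS5 were lowest in HPC, as NOTCH3 was. RGS5, CSPG4 and DES were highest in HEP, where the deposited NOTCH3 value was highest. The part of these cells in the NOTCH3 values was not tested.

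NOTCH4, a receptor found mainly in endothelium, had 0.09 in hESC, 0.05 in MES, 1.04 in HEP, then 1.46 in HPC. It was the lowest of the 4 receptors in every library and never reached the minimum of 5, so it could not be called. HEP minus MES was 0.96 and HPC minus hESC 1.17 on the log2 scale of (value + 1). Its exons overlap those of GPSM3 on the same strand in GENCODE 29, so reads of the 2 genes may be mixed.

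The mix of receptors changed between MES and HEP. NOTCH2 made up 50.5% of the summed receptor value in hESC and 52.5% in MES, and NOTCH1 27.5% and 20.5%. In HEP NOTCH1 made up 50.0% and NOTCH2 23.5%, and in HPC 56.3% and 29.4%. The ratio of NOTCH1 to NOTCH2 was 0.545, 0.390, 2.13 and 1.92 in hESC, MES, HEP and HPC. With the GC trend removed NOTCH1 still had the larger share in HEP (44.9% against 31.1% for NOTCH2) and in HPC (54.1% against 32.1%), and the smaller one in hESC (32.6% against 41.5%) and MES (22.4% against 48.0%). The summed receptor value was 23.4 in hESC, 40.65 in MES, 56.0 in HEP, then 30.02 in HPC.

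**Figure D2:**
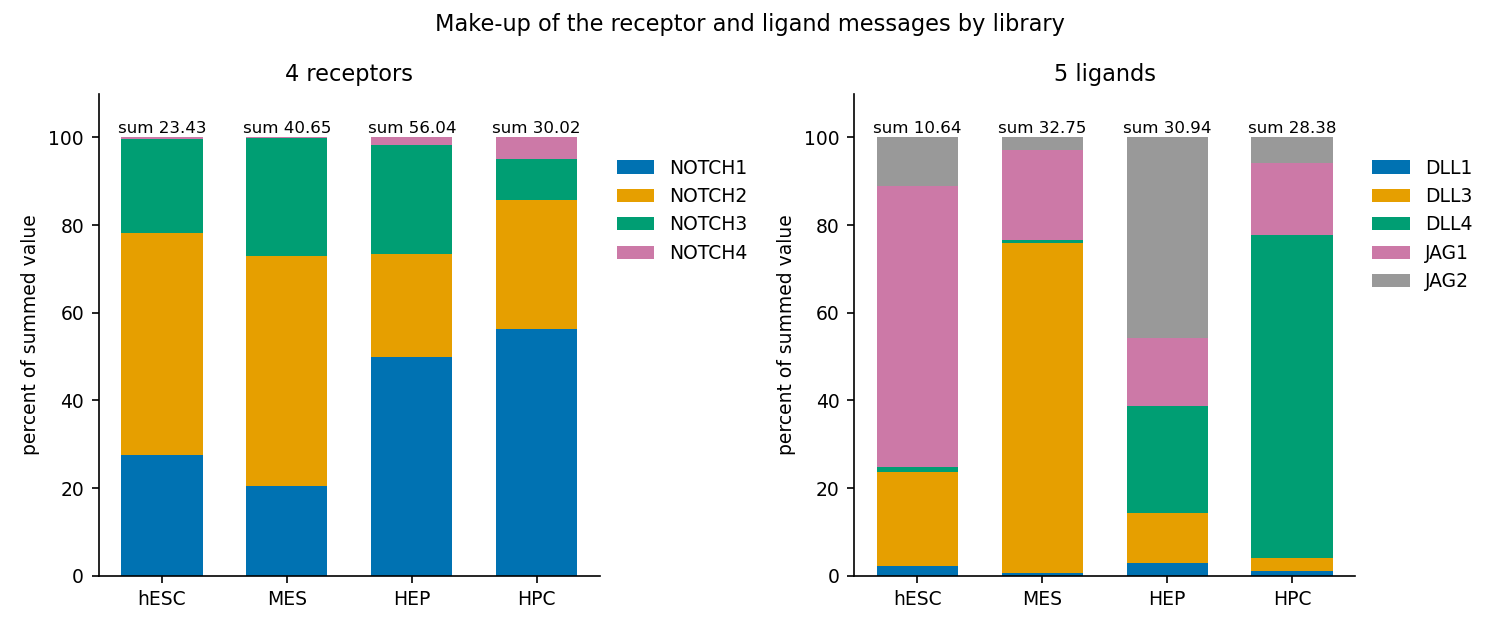
Share of the summed deposited value (percent, 1 library per population) taken by each of the 4 receptors and each of 5 ligands in hESC, MES, HEP and HPC, with the sum written above each bar. NOTCH1 passes NOTCH2 in HEP and HPC, and the leading ligand is JAG1 in hESC, DLL3 in MES, JAG2 in HEP and DLL4 in HPC.

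The 3 ligands had 3 different profiles. DLL4, the ligand of arterial and sprouting endothelium, had 0.11 in hESC, 0.22 in MES, 7.54 in HEP, then 20.96 in HPC. It was near 0 in the first 2 libraries and higher at each of the next 2 steps: HEP minus MES was 2.81 (2.61 with the GC trend removed) and HPC minus HEP 1.36 (1.54 with the trend removed). HPC minus hESC, at 4.31, was the largest difference of any of the 10 genes in the 4 comparisons. By value DLL4 was the 1886th gene in HPC and the 13641st in hESC.

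JAG2, a ligand of the Jagged class, was high in HEP and low elsewhere. It had 1.19 in hESC, 0.98 in MES, 14.15 in HEP, then 1.64 in HPC. HEP minus MES was 2.94 (2.52 with the GC trend removed) and HPC minus HEP was -2.52 (-2.21 with the trend removed). Its exons overlap those of AL512356.1, a processed transcript on the same strand, and it has the highest GC content of the 10.

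JAG1, the other Jagged ligand, which is used in many tissues, stood at 6.82, 6.66, 4.81 and 4.66 in hESC, MES, HEP and HPC. Its highest and lowest values of (value + 1) differed 1.38-fold, the narrowest span of the 10 genes, and no comparison passed the rule under the values as deposited. An antisense transcript overlaps JAG1, and whether counting used strand is not given in the sources used here.

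Of the sum of DLL4, JAG1 and JAG2, JAG1 took 84.0% in hESC and 84.7% in MES, JAG2 took 53.4% in HEP, and DLL4 took 76.9% in HPC. The ratio of DLL4 to JAG1 was 0.0161, 0.0330, 1.57 and 4.50 across the 4 stages. The leading ligand of MES was another one once the other Delta-type genes were counted. DLL3, a divergent ligand that acts mostly as an inhibitor inside the cell that makes it, stood at 2.28, 24.7, 3.56 and 0.85, and DLL1 at 0.24, 0.21, 0.88 and 0.27 in hESC, MES, HEP and HPC. Of the sum of these 5 ligands DLL3 made up 75.4% in MES.

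The 3 target genes encode basic helix-loop-helix repressors, and HES1 was the most abundant of them in every library. HES1 had 6.10 in hESC, 47.5 in MES, 25.4 in HEP, then 18.3 in HPC. It was highest in MES, where it was the 1017th gene by value, and MES minus hESC was 2.77 (2.94 with the GC trend removed). HEP minus MES was -0.88 and HPC minus HEP -0.45, and neither passed the rule. HPC still stood above hESC, by 1.44 on the log2 scale.

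HEY1 and HEY2, which act downstream of NOTCH in arterial endothelium of the mouse, had lower values and parted after HEP. HEY1 stood at 0.60, 1.33, 3.85 and 5.04 in hESC, MES, HEP and HPC. It was above the stage before at every step, and HPC minus hESC was 1.92. HEP minus MES was 1.06 but both values lay under the minimum of 5. With the GC trend removed HEP reached 5.26 against 1.12 in MES, and the difference of 1.56 passed the rule. HEY2 stood at 1.56, 2.57, 5.79 and 1.40. HEP was the high library, and HPC minus HEP was -1.50 (-1.79 with the trend removed). HEP minus MES was 0.93, short of the threshold, and it passed under 6 of the 10 alternative settings, with values from 1.04 to 1.64. The ratio of HES1 to the sum of HEY1 and HEY2 was 2.82, 12.2, 2.63 and 2.85 over the 4 stages, so MES stood apart in the make-up of target messages.

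**Figure D3:**
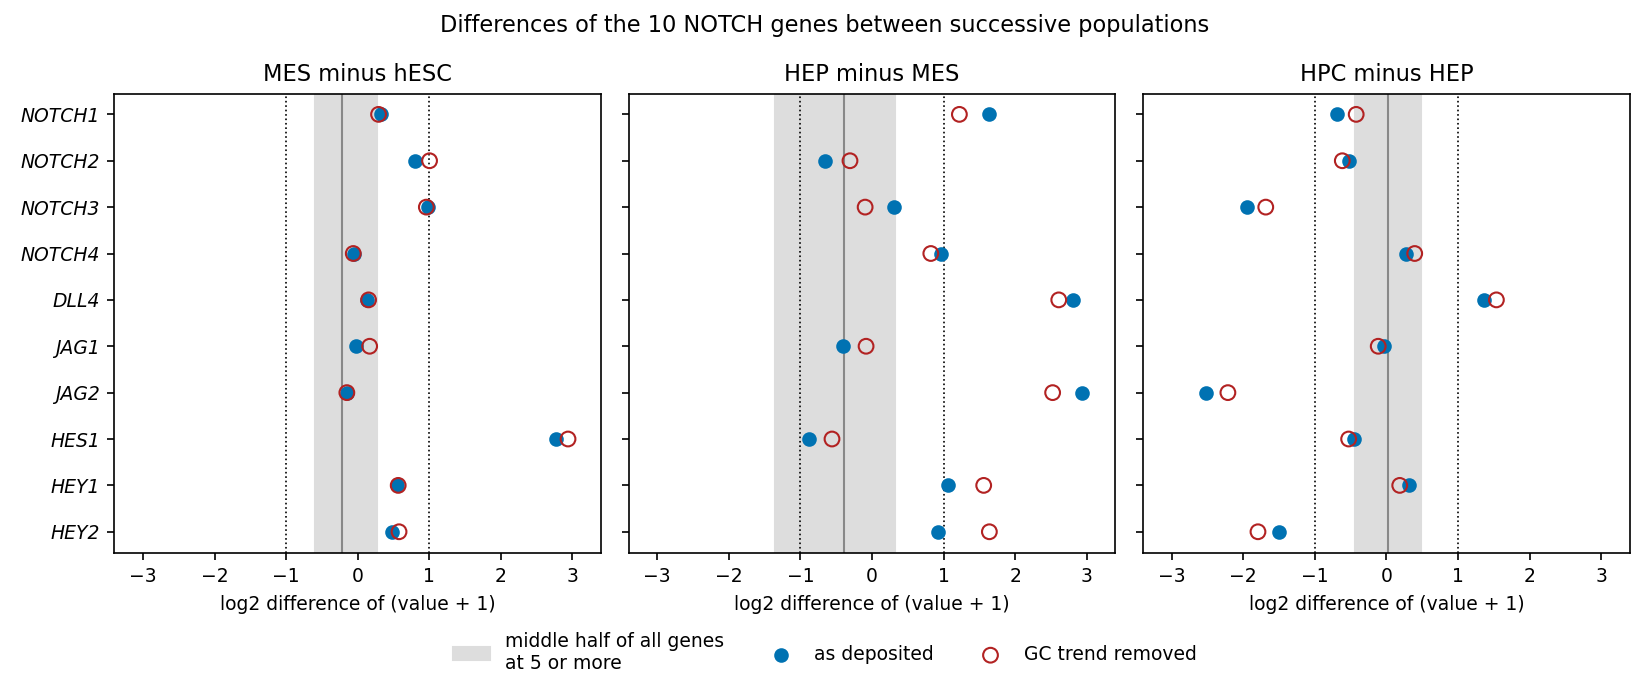
Log2 difference of (value + 1) for each of the 10 genes in the 3 successive comparisons (filled points as deposited, open points with the GC trend removed, 1 library per population). The grey band holds the middle part of all genes at 5 or more in either library (quartile to quartile), the grey line is their median and dotted lines mark the threshold of 1 in size. HES1 stands out in MES minus hESC, NOTCH1, DLL4 and JAG2 in HEP minus MES, and JAG2, NOTCH3, HEY2 and DLL4 in HPC minus HEP.

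Set side by side, the steps differed in how many of the 10 genes they touched. In MES against hESC 1 of 10 genes was higher (HES1) and 0 lower, where 3.79% of all 17630 genes were higher and 3.7% lower. With the GC trend removed 2 were higher (HES1 and NOTCH2) and 0 lower, against 4.07% and 2.17% of all genes. In HEP against MES 3 were higher (NOTCH1, DLL4 and JAG2) and 0 lower, where 3.32% of all genes were higher and 13.9% lower. With the GC trend removed 5 were higher, HEY1 and HEY2 joining the others, and 0 lower, where 3.65% and 4.96% of all genes were so called. In HPC against HEP 1 was higher (DLL4) and 3 lower (NOTCH3, JAG2 and HEY2), where 3.01% of all genes were higher and 3.57% lower. The same 4 calls stood with the GC trend removed, against 2.66% and 3.49% of all genes. HPC against hESC, which shares libraries with the first and last of these, had 4 higher (NOTCH1, DLL4, HES1 and HEY1) and 0 lower, where 4.67% of all genes were higher and 15.8% lower. These 4 calls too stood with the GC trend removed, against 6.35% and 6.59% of all genes. These percentages are over all genes, many of them under 5 in both libraries. In HEP against MES 8 of the 10 were among the 7225 genes at 5 or more in either library, of which 8.10% were higher and 33.9% lower. In MES against hESC 5 of the 10 were among 7458 such genes, of which 8.97% were higher and 8.76% lower. In HPC against HEP 8 were among 5894, of which 8.99% were higher and 10.7% lower. In HPC against hESC 7 were among 7437, of which 11.1% were higher and 37.4% lower. The median log2 difference of the 10 was 0.40 in MES minus hESC, 0.94 in HEP minus MES and -0.49 in HPC minus HEP. The medians over all genes at 5 or more were -0.21, -0.39 and 0.02. The sets are unlike, as the median of the 10 includes those under 5 in both libraries.

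The rest of the pathway was read from a list of 62 other genes, of which 60 had a row. In MES against hESC 2 of 60 were higher and 1 lower, where 3.79% and 3.7% of all genes were. The higher ones were DLL3 (log2 difference 2.97) and FURIN, a protease that cuts the receptor as it matures (15.4 in MES and 3.47 in hESC, difference 1.87). Removing the GC trend left 4 higher, the gamma-secretase subunit gene NCSTN (1.05) and the ubiquitin ligase gene MIB2 (1.04) joining them, where 4.07% of all genes were. The gene LFNG was lower, at 2.46 in MES and 11.5 in hESC (-1.85). LFNG encodes one of the Fringe enzymes, which add sugar to NOTCH and change which ligands it answers to.

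In HEP against MES 5 of 60 were higher and 10 lower, where 3.32% and 13.9% of all genes were. Of the 60, 33 were at 5 or more in MES or HEP, and 33.9% of all such genes were lower. MFNG, another Fringe enzyme, stood at 17.3 in HEP and 0.09 in MES (4.07), and LFNG at 13.7 in HEP and 2.46 in MES (2.09), while the third Fringe gene, RFNG, was at 7.16 in HEP and 7.00 in MES. The target gene HES4, which has no counterpart in the mouse, stood at 8.37 in HEP and 0.61 in MES (2.54). FURIN was at 56.0 in HEP and 15.4 in MES (1.80), and APH1A, a gamma-secretase subunit, at 64.0 in HEP and 31.0 in MES (1.02, or 0.88 with the GC trend removed, under the threshold). Removing the GC trend again gave 5 higher, where 3.65% of all genes were. APH1A dropped out and the turnover gene FBXW7 joined (0.08 as deposited, 1.19 with the trend removed).

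Of the 10 lower genes, 4 remained so with the GC trend removed, where 4.96% of all genes were lower. These were DLL3, at 3.56 in HEP and 24.7 in MES (-2.49), RBPJ, at 1.11 in HEP and 8.29 in MES (-2.14, or -1.03 with the trend removed), SNW1, a cofactor that binds RBPJ, at 5.38 in HEP and 25.2 in MES (-2.04, or -1.12), and the histone deacetylase HDAC2, at 1.5 in HEP and 9.84 in MES (-2.12, or -1.47). RBPJ, the DNA-binding partner of all 4 receptors, had 16.8 in hESC, 8.29 in MES, 1.11 in HEP, then 2.49 in HPC. It has processed copies elsewhere in the genome that can share its reads. The other 6 lower genes were the receptor proteases ADAM10 (-1.33) and ADAM17 (-1.01), the ubiquitin ligases MIB1 (-1.46), which activates ligands, and ITCH (-1.43), the co-activator EP300 (-1.003) and the co-repressor SPEN (-1.51). They had low to middling GC contents, from 37.7% (MIB1) to 50.6% (EP300), and with the trend removed their differences lay between -0.78 (EP300) and 0.30 (MIB1), none past the rule.

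In HPC against HEP 3 of 60 were higher and 2 lower, where 3.01% and 3.57% of all genes were. DLK1, a NOTCH-like membrane protein that lacks the domain ligands use to activate receptors, stood at 34.01 in HPC and 0.33 in HEP (4.72), the largest difference on the list. MFNG was at 45.8 in HPC and 17.3 in HEP (1.36), and HES4 at 21.3 in HPC and 8.37 in HEP (1.25). LFNG was lower, at 5.22 in HPC and 13.7 in HEP (-1.24), as was the ubiquitin ligase gene DTX4, at 1.91 in HPC and 5 in HEP (-1.04, or -0.97 with the trend removed). With the GC trend removed 4 were higher, MIB2 joining (0.80 as deposited, 1.09 with the trend removed), and 1 lower (LFNG). Of all genes 2.66% were then higher and 3.49% lower. The other target genes on the list were low or flat: HES5, HES7 and HEYL were under 1 in all 4 libraries, HES6 stood at 16.6, 14.4, 15.8 and 8.45, and NRARP, a feedback inhibitor of the pathway, at 4.42, 0.78, 1.29 and 2.95 in hESC, MES, HEP and HPC.

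**Figure D4:**
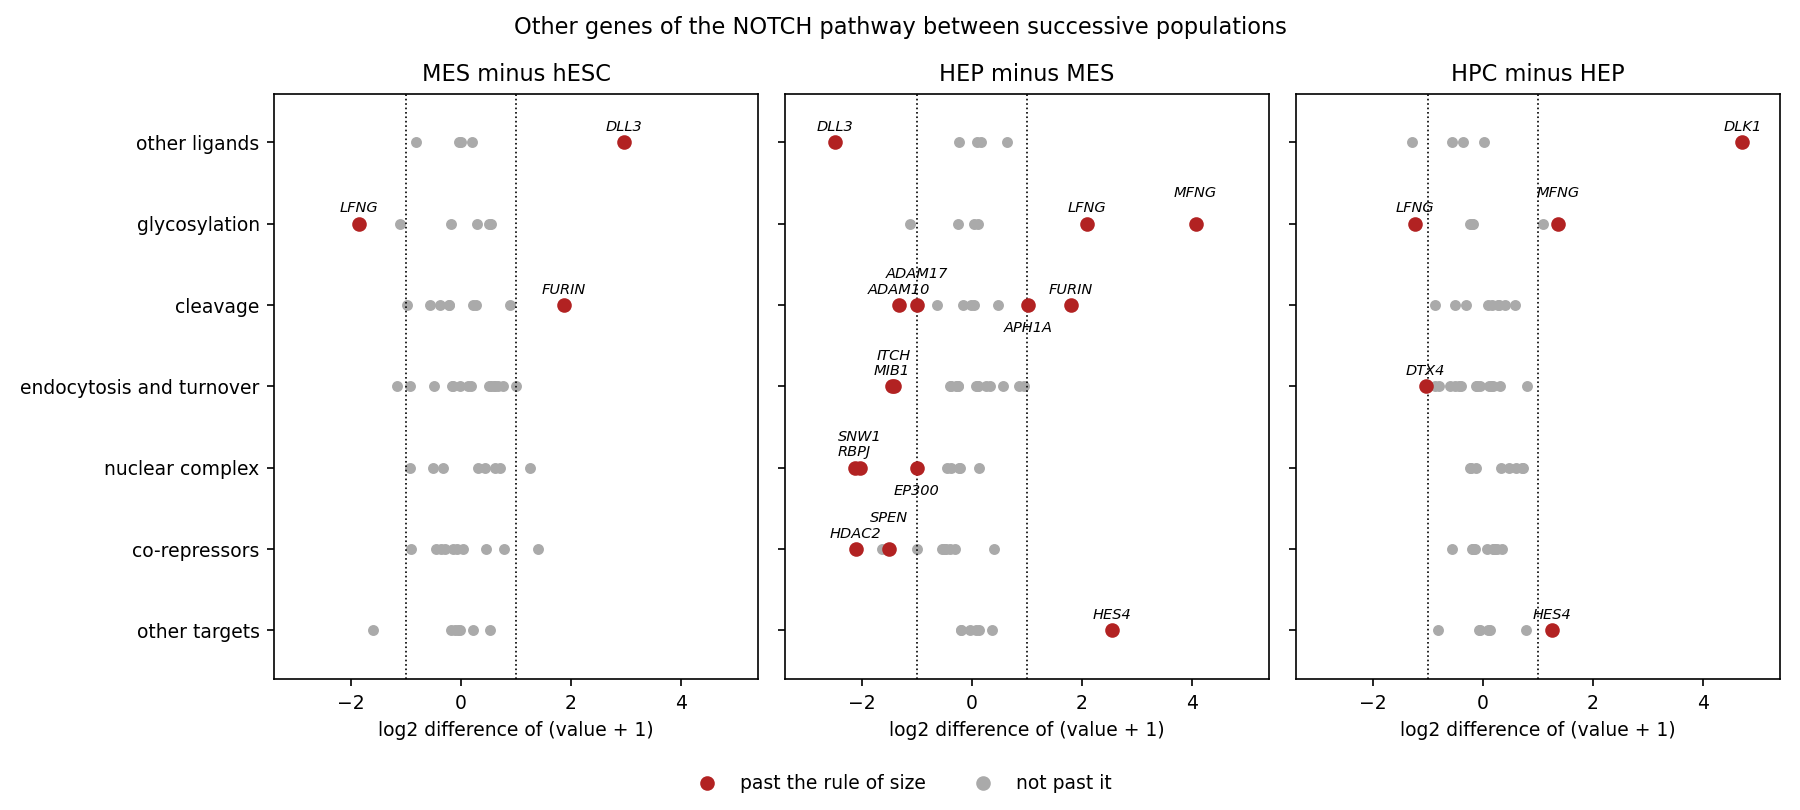
Log2 difference of (value + 1) for 60 other NOTCH pathway genes, by role, in the 3 successive comparisons (1 point per gene, 1 library per population, dotted lines at 1 in size). Named red points passed the rule of size. MFNG, HES4 and FURIN stand on the higher side in HEP minus MES, RBPJ, SNW1 and HDAC2 on the lower side, and DLK1 on the higher side in HPC minus HEP.

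Genes of arterial endothelium, where the pathway is best known, were set beside the 10. Of 11 arterial genes, 3 were higher in MES than in hESC (CXCR4, SOX17 and NRP1) and 0 lower (2 higher with the GC trend removed), 5 higher (GJA4, GJA5, NRP1, SOX7 and ACVRL1) and 1 lower (EFNB2) in HEP than in MES (6 and 0 with the GC trend removed), and 1 higher and 7 lower in HPC than in HEP. Of all genes 3.79% were higher and 3.7% lower at the first of these steps, 3.32% and 13.9% at the second, and 3.01% and 3.57% at the last. With the GC trend removed the shares were 4.07% and 2.17%, then 3.65% and 4.96%, then 2.66% and 3.49%. Among genes at 5 or more in either library, as deposited, they were 8.97% and 8.76%, then 8.10% and 33.9%, then 8.99% and 10.7%. The same shares stand beside the venous counts below. The gap junction gene GJA4 stood at 1.49, 1.48, 20.5 and 26.5 in hESC, MES, HEP and HPC, and GJA5 at 1.18, 2.87, 24.8 and 9.90. EFNB2, an arterial marker that NOTCH signalling is known to switch on, stood at 3.25, 6.16, 2.53 and 9.48. It was the 1 arterial gene that was higher in HPC than in HEP (1.57), as DLL4 was. The transcription factors SOX17 (1.45 in HPC and 26.9 in HEP, -3.51) and SOX7 (1.69 in HPC and 12.15 in HEP, -2.29) were lower. So were NRP1 (10 in HPC and 32.25 in HEP), ACVRL1 (11.9 and 38.0), UNC5B (3.03 and 13.9), CXCR4 (5.74 and 12.9) and GJA5. Of 6 venous genes 2 were higher in MES than in hESC, NRP2 and APLNR, the antigen on which MES was sorted. In HEP against MES 2 were higher (EPHB4 and FLT4, and FLT4 only with the GC trend removed). In HPC against HEP 4 were lower, namely EPHB4 (32.5 in HPC and 89.9 in HEP, -1.44), NRP2 (10.1 and 76.5, -2.80), FLT4 (7.01 and 18.1, -1.26) and APLNR (-3.92). Of these 4 genes, 3 remained lower with the GC trend removed, all but FLT4. NR2F2, which encodes the venous regulator COUP-TFII, known in the mouse to repress NOTCH signalling, was under 1 in all 4 libraries, with 0.13 the highest value, in HEP. The summed endothelial markers were lower in HPC (216) than in HEP (417), and their part in these values was not tested.

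Genes with the profiles most like those of the 10 were found by the root mean square difference of log2 profiles over the 4 libraries, each centred on its own mean, among 8173 other genes at 5 or more in any library. With 4 points such likeness is common for flat genes, and 601 genes lay within 0.2 of JAG1, against 3 for JAG2, 4 for HES1 and 6 for DLL4. The profile nearest to DLL4 was that of GFI1B, a blood transcription factor, at 0.03, 0.05, 7.28 and 20.96 (distance 0.08, and still the nearest with the GC trend removed), followed by KCNH2 (0.11) and the ETS factor FLI1 (0.15). The profiles nearest to JAG2 were CCDC80 (0.10), SP7 (0.13) and EGFL7, an endothelial secreted factor (0.17), at 32.9, 21.4, 216 and 36.6. With the GC trend removed SP7 and EGFL7 were the nearest 2 and CCDC80 was 115th. HES1 was closest to ACOX3 (0.12), TBC1D9 (0.17) and BAMBI, a BMP-induced pseudoreceptor (0.18), at 14.4, 147, 70.15 and 49.3.

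NOTCH1 was closest to RGS3 (0.10), SERTAD1 (0.14) and MYZAP (0.14), NOTCH2 to RACGAP1 (0.04), SCRN1 (0.06) and IRGQ (0.06), and NOTCH3 to SLC12A4 (0.08), NPR2 (0.12) and ENO3 (0.13). SLC12A4, at 6.38, 13.7, 15.5 and 3.11, was still second nearest to NOTCH3 with the GC trend removed. JAG1 was closest to CTSL, SMYD4 and PREP. HEY1 was closest to KLHDC8B (0.05), MMP9 (0.06) and TEX264 (0.09), and HEY2 to RRAS (0.05), SEMA4C (0.07) and SERPINH1 (0.08). Many of these likenesses rested on the values as deposited. Once the GC trend was removed, the best placed of the 3 was 139th for HEY1 and 175th for HEY2. RGS3 was then 34th, SERTAD1 23rd and MYZAP 1387th for NOTCH1, RACGAP1 26th, SCRN1 8th and IRGQ 1258th for NOTCH2, and NPR2 85th and ENO3 26th for NOTCH3. FLI1 was 39th for DLL4, and PREP was 3472nd for JAG1 while CTSL was 5th.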

How the data were processed

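Messenger RNA libraries (TruSeq, from 2 ug of total RNA per the labels' protocols) of 4 populations were analysed, 1 per group. The deposited values are an expression signal per gene with 2 decimals. Per the submitters' processing notes, the authors used BWA, Bowtie and RSEM with the genome build hg19; not given in the sources used here are versions, roles, annotation, the use of strand and the RSEM measure. Depth is unknown, so no interval or floor is given. Of the values between 0 and 20, 0.661% were whole within 0.005.

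Each table had 17634 rows; 4 rows that shared date-like names were left out. The 10 genes, the lists and the rules were chosen with earlier results of these data known. Named genes were the 10, every listed pathway gene past the rule in a successive comparison, and arterial and venous genes past it. The 3 nearest profiles of each gene at 5 or more were named too. HES5, HES6, HES7, HEYL, NRARP, RFNG, NR2F2, DLL1, NCSTN, MIB2 and FBXW7 were named after their values were seen.

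Log2 differences used a pseudocount of 1. GC content was the median over protein-coding transcripts of GENCODE 29, matched for 17428 genes (98.9%). The GC trend was each library's median log2 deviation in 50 GC bins (from genes whose mean was at least 5), smoothed over 5 bins; genes with no GC value received the library's median trend. After removal the rho with GC content was 0.13 for HEP minus MES. There were 10 alternatives: a pseudocount of 0.1 or of 5, a minimum of 20 or none, 4-fold, 4 scalings and the GC trend removed. Median-of-ratios factors came from 3952 genes at 5 or more in every library. The procedure was tested on a simulated copy of hESC, with 4-fold changes planted only in genes at 20 or more. That test does not cover changes near the 2-fold threshold or genes with low values. Python 3.11.15 with pandas 2.3.3, numpy 2.4.6 and matplotlib 3.10.9 was used.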

Additional observations from a re-analysis of the deposited data

How the results depend on the processing

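Of 40 differences of the 10 genes (4 comparisons), 6 changed sign under some scaling or with the GC trend removed, and 0 of the differences that passed the rule did so. Median-of-ratios scaling raised log2 ratios to hESC: by 0.16 for MES, by 0.27 for HEP, by 0.29 for HPC. The number of the 10 genes higher in MES than in hESC was 1 as deposited and 3 with a common total. It was 2 with a pseudocount of 0.1, median-of-ratios scaling, upper quartile scaling, a common total without abundant genes or the GC trend removed. Of all genes 3.79% were higher as deposited, and from 4.04% (upper quartile scaling) to 4.80% (common total) under these settings. The number higher in HEP than in MES was 3. It was 5 with upper quartile scaling or the GC trend removed and 1 with a minimum of 20. Of all genes 3.32% were higher as deposited. The share was 8.47%, 3.65% and 1.63% under those settings in the same order. For HPC against HEP, 0 were higher at 4-fold in place of 1. Lower were 1 at 4-fold and 0 with a minimum of 20, in place of 3. Of all genes 0.76% were higher at 4-fold, against 3.01% as deposited. Lower were 0.981% at 4-fold and 1.50% with a minimum of 20, against 3.57% as deposited. For HPC against hESC, 4 were higher, against 2 with a pseudocount of 5 and 1 with a minimum of 20 or at 4-fold. Of all genes 4.67% were higher as deposited. The share was 3.11% with a pseudocount of 5, 1.88% with a minimum of 20 and 2.17% at 4-fold. With a pseudocount of 5, HEY2 in HPC minus HEP (-0.75), and NOTCH1 (0.94) and HEY1 (0.84) in HPC minus hESC, no longer passed. Of the 60 pathway genes, 2 were higher in MES than in hESC as deposited. There were 4 with no minimum, median-of-ratios scaling, a common total or the GC trend removed. There was 1 with a minimum of 20 or at 4-fold. Of all genes 5.83%, 4.74%, 4.80%, 4.07%, 1.41% and 1.55% were higher under these settings in that order. Those lower were 1 as deposited. There were 2 with a pseudocount of 0.1, 4 with no minimum, and 0 with a minimum of 20 or at 4-fold. Of all genes 4.41%, 5.54%, 1.63% and 0.686% were lower in that order. Those higher in HEP than in MES were 2 with a minimum of 20 and 3 at 4-fold, in place of 5. Of all genes 1.63% and 1.24% were higher under these settings. Those lower were 10 as deposited. There were 3 with a minimum of 20, 4 at 4-fold or with the GC trend removed, and 6 with upper quartile scaling. Of all genes 4.71%, 4.52%, 4.96% and 9.66% were lower in that order, against 13.9% as deposited. Those higher in HPC than in HEP were 1 at 4-fold in place of 3, where 0.76% of all genes were higher. Those lower were 2 as deposited. There were 0 with a pseudocount of 5, a minimum of 20 or at 4-fold. There were 5 with a common total and 1 with the GC trend removed. Of all genes 2.14%, 1.50%, 0.981%, 5.01% and 3.49% were lower under these settings in that order. Fewer genes can pass a higher minimum or fold by construction; for the other settings the cause was not tested. No paired analysis was possible because each group is 1 library.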
